A study of Mus musculus with 17 samples.

Results

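The sites described here are CCCGGG positions on the mouse autosomes that carried weak methylation in the blood of young mice. A site was chosen by its raw methylation in the 5 young mice, with a mean from 5% to below 20%, and had to carry 100 or more reads in no fewer than 13 of 17 mice. Any genomic context was allowed. Of 173449 genomic sites, 15742 met the read minimum and 570 of these (3.62%) fell in the window, of which 444 reached 100 reads in each of the 17 mice. Because of that choice, no test against the young mice is read below. DNA methylation was measured with Digital Restriction Enzyme Analysis of Methylation (DREAM) in whole blood of C57BL/6 mice. Of these, 5 mice fed ad libitum were 4 months old (AL-young, 2 females and 3 males), 7 mice fed ad libitum were 29 to 33 months old (AL-old, 5 females and 2 males) and 5 mice kept on caloric restriction were 32 to 38 months old (CR-old, 2 females and 3 males). Per the study's methods the restricted animals came from the same aging colony and had been on restriction since early adulthood, and each mouse was sampled once, so age was compared between animals and not within them. The AL-old to AL-young comparison addresses age, and the CR-old to AL-old comparison addresses diet at old age. In both comparisons the groups also differed in their share of females and in the size of a correction described below. The CR-old mice were also older (32 to 38 months) than the AL-old mice (29 to 33 months). Effects of age or diet cannot be fully told apart from these differences.

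In DREAM, SmaI cuts CCCGGG only where the central CpG is unmethylated, and XmaI then cuts the remaining methylated copies, so that the end of each fragment records the state of that molecule. The methylation level of a site is the share of its reads with the methylated end. CpG islands, stretches of DNA dense in CpG that cover many gene promoters, are mostly free of methylation in blood, while most CpGs elsewhere are methylated. A weak level in bulk blood can come from few cells carrying methylation at both alleles or from many carrying it partly, and these cannot be told apart here, nor can a shift in blood cell types from a change within cells.

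The sequences of 8 sites named below are printed so that the CpG-dense and CpG-poor settings can be seen. Each is the plus strand of NCBIM37 (mm9), and capitals mark the CCCGGG whose central CpG was measured. Among sites whose AL-old and young mice did not overlap and that reached 100 reads in every mouse, the first 3 had the largest increases between young and AL-old means and the next 2 the largest decreases. Then come the Mn1 site, higher in CR-old mice, and 2 sites with the smallest range over all mice.
Trhde, chr10:114238485-114238590: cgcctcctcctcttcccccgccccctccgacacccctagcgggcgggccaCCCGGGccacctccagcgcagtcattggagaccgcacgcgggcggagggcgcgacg
Sox11, chr12:28027753-28027858: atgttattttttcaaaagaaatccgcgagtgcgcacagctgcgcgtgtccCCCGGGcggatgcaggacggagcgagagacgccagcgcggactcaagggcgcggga
Ephb3, chr16:21205223-21205252: ccaaccgagcgcCCCGGGctatggccggag
4930511F01Rik, chr2:142728329-142728434: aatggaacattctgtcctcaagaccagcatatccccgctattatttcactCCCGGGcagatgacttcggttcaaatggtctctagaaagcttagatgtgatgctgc
Tns3, chr11:8528737-8528842: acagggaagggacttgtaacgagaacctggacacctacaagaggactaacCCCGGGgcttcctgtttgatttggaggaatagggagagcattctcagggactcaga
Mn1, chr5:111849700-111849805: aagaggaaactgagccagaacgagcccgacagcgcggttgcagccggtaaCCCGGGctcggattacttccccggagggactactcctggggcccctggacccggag
Cd82, chr2:93303210-93303239: atcctggtgcaaCCCGGGaatggcgtggga
Intergenic site, chr4:10850608-10850713: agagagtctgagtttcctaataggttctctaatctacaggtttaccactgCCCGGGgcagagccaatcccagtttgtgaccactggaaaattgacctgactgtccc
In windows of 106 bases the Trhde and Sox11 sequences each held 14 CpGs, with 77.4 and 62.3% GC. The windows of the same length at 4930511F01Rik and Tns3 held 3 and 2 CpGs, with 46.2 and 51.9% GC.

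The 570 sites lay between the island and the non-island parts of the genome. Of these, 148 (26%) were in CpG islands, against 83.4% of the 10220 retained sites below 5% in AL-young mice, 8.30% of the 1277 sites from 20 to below 80% and 3.43% of the 3675 sites at 80% or more. Among the 422 sites outside islands, 196 (46.4%) lay within 2000 bp of an island. The median number of CpGs in the surrounding 500 bp was 16.5, compared with 45 for sites below 5% and 10 for sites from 20 to below 80%. Promoters, defined as 1000 bp before to 500 bp after an annotated start, held 186 sites (32.6%), of which 70 were in islands and 116 outside. Another 253 sites (44.4%) were in gene bodies and 131 (23.0%) were intergenic. By annotated feature, 237 were intronic, 73 in coding exons, 43 in untranslated regions, 17 in other exons and 69 upstream of a gene. In all, 550 sites had another retained site within 1000 bp, at a median distance of 207 bp. The nearest such site was below 5% in AL-young mice for 272 of them, was itself weakly methylated for 142 and was at 20% or more for 136. The sites were named for 372 genes, of which 59 had 2 or more.

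When each AL-young mouse was left out of the rule in turn, 567 to 582 sites were chosen and 545 to 556 were shared with the 570, and the mouse left out had a mean of 9.39 to 11.9% over them. At the ends of the window, Kcng1 and an intergenic site on chromosome 14 had AL-young means of 5.0 and 4.98% and were just outside, while A330033J07Rik and Hic1 were just inside at 5.01% each. At the other end, Gm13849 and Ptpn13 were inside at 19.9% each, and intergenic sites on chromosomes 13 and 17 were outside at 20.0% each. The level of Kcng1 was below 5 before rounding.

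Total reads per mouse ran from 6.43 to 52.02 M reads (megareads), with group means ± SD of 17.7 ± 19.3, 10.1 ± 3.10 and 10.4 ± 2.92 M for young, AL-old and CR-old mice. Besides reads, the authors deposited an adjusted methylation percentage per site and mouse, corrected with spiked-in standards of known methylation. The size of that correction, taken here as the ratio of the adjusted to the raw odds of methylation, was 0.90 to 1.13 in the AL-young mice. It was 1.40 to 3.96 in the 5 AL-old females, 0.87 and 0.90 in the 2 AL-old males, 1.80 in the CR-old female 06 and 0.88 to 1.09 in the other 4 CR-old mice. A factor of 1.3 or more, found in 6 mice, is called a high correction below. It coincided with female sex in the AL-old group, so its part in the AL-old values and that of sex cannot be told apart. Raw and adjusted values are therefore given together. Of 11 marker genes used to check the tissue label (such as Ptprc, Cd79a, Cd3e and Alb), none had a retained promoter site, so the label was not checked.

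The mean raw methylation of the 570 sites was 10.7 ± 0.768% in the 5 young mice (mean ± SD), 11.3 ± 4.76% in the 7 AL-old mice and 10.7 ± 2.28% in the 5 CR-old mice. The AL-old mice ran from 5.07 to 19.4%, around every AL-young and every CR-old mean. On the adjusted scale the means were 11.1 ± 0.504%, 15.6 ± 3.07% and 11.7 ± 0.262%. Each AL-old mouse on this scale lay at 12.2 to 20.2%. This was above each AL-young mouse (10.6 to 11.8%) and each CR-old mouse (11.3 to 12%). The mean of a mouse covers only members with 100 or more reads in it, so the sets of sites differed. There were 485, 488, 520 and 532 such sites in AL-old 27, 08, 13 and 25, and 560 to 570 in young mice. The 148 island sites had raw means of 9.87 ± 1.09%, 14.2 ± 6.92% and 11.9 ± 2.73% and adjusted means of 10.3 ± 0.605%, 19.3 ± 4.95% and 12.9 ± 0.692% in young, AL-old and CR-old mice. The 422 sites outside islands had raw means of 10.9 ± 0.665%, 10.3 ± 4.04% and 10.3 ± 2.13% and adjusted means of 11.4 ± 0.548%, 14.3 ± 2.54% and 11.3 ± 0.155%. In the 2 AL-old mice with a low correction the raw mean over all members was 16.5%, and in the 4 such CR-old mice it was 11.7%.

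**Figure D1:**
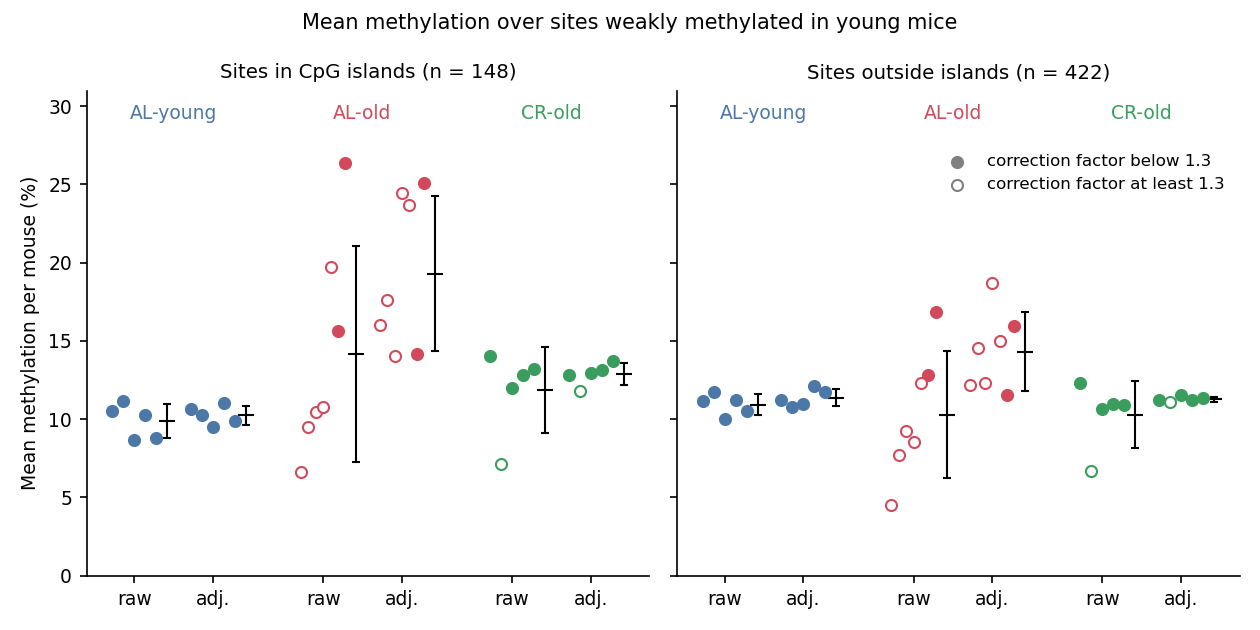
Mean methylation in percent of the weakly methylated sites in each mouse, raw and adjusted, by group, for the 148 sites in islands and the 422 outside, where points are mice, open points mark a correction factor of at least 1.3 and bars give the group mean ± SD. On the adjusted scale the AL-old mice lay between 14.01 and 25.1% in islands, above all young mice (9.53 to 11.04%) and all CR-old mice (11.8 to 13.7%), and outside islands they began at 11.5%, within the range of the young mice (10.8 to 12.1%).

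Between AL-young and AL-old mice the direction at the typical site depended on the scale. The median difference, AL-old minus AL-young, was -1.54 points raw, with 40.7% of sites higher in AL-old, and 1.58 points adjusted, with 58.2% higher. With only low-correction mice the raw median was 1.94 points and 60.8% were higher. Island sites had a median difference of 1.03 points raw (54.1% higher) and 5.51 adjusted (76.4% higher). Sites outside islands had -2.57 points raw (36.0% higher) and 0.34 adjusted (51.9% higher). Promoter sites outside islands were the subset with the lower values, at -3.28 points raw (29.3% higher) and -1.52 adjusted (42.2% higher), while island sites between genes had 2.12 raw and 7.78 adjusted. Over sites below 5% in AL-young mice the medians were 0 raw and 0.207 adjusted, and over sites from 20 to below 80% they were -10.2 raw and -2.24 adjusted.

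**Figure D2:**
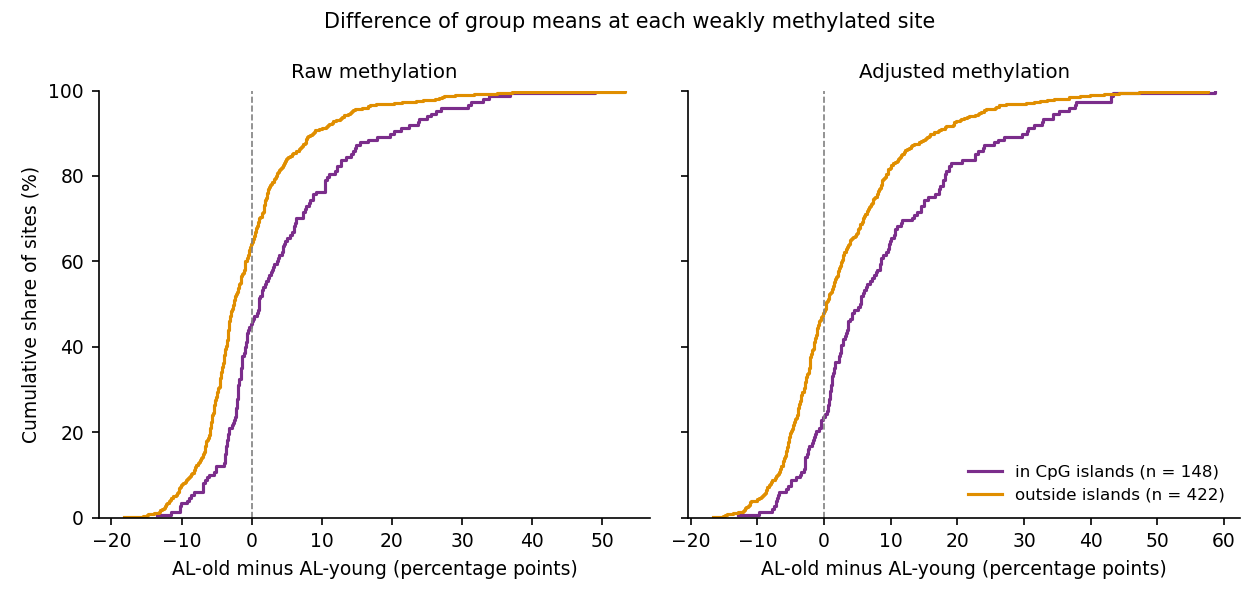
Cumulative share of sites in percent against the AL-old minus AL-young difference of means in percentage points, for sites in and outside CpG islands, on raw and adjusted values. The island curve lies to the right, with medians of 1.03 raw and 5.51 adjusted against -2.57 and 0.34 outside islands.

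A site was called where the edgeR quasi-likelihood test on its methylated and unmethylated reads gave an adjusted p below 0.05 over all retained sites and the raw means differed by at least 2 points. For the offset fit the difference of 2 points was required of the adjusted means. For the fit to low-correction mice it was required of the raw means of those mice. With no term for the correction (the uncorrected fit), 22 of the 570 sites were called higher in AL-old than in young mice and 83 lower, where the background over all 15742 retained sites was 3.9% higher and 5.87% lower. Of these, 12 of the higher and 5 of the lower were in islands. With the correction factor as an offset, 54 were higher (29 in islands) and 47 lower (2 in islands), against a background of 7.62 and 3.34%. All 22 higher calls and 47 of the 83 lower calls were made by both fits, and no site was called in opposite directions. With a covariate for high or low correction 24 were higher and 1 lower, beside 722 and 158 of all 15742 retained sites. In low-correction mice alone 56 were higher and 5 lower, beside 1352 and 221 of all retained sites. Because the young values chose the sites, nothing is read from these counts. Groups that did not overlap gave 11 sites with every AL-old mouse above the AL-young range on raw values (background 2.38%) and 33 with every AL-old mouse below it (background 2.13%). On adjusted values these were 29 (background 5.09%) and 29 (background 1.79%). Of the raw ones, 8 above and 17 below reached 100 reads in each mouse, and the sites named next come from them.

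Among sites whose AL-old and young mice did not overlap and that reached 100 reads in every mouse, the 3 with the largest gains in raw means were in promoter islands of Trhde, Sox11 and Ephb3. All gained sites named here and below were chosen for high AL-old values. A difference between CR-old and AL-old mice at them is therefore not independent of that choice. Trhde encodes an ectoenzyme that degrades thyrotropin-releasing hormone, and its site (chr10:114238535-114238540) was in an exon in the promoter, at position -111 from the nearest start. The AL-young mice were at 8.42, 9.15, 4.9, 3.44 and 6.13%, the AL-old mice at lowest 18.2, median 54.6 and highest 94.5%, and the CR-old mice at 13.5, 20.6, 7.99, 10.8 and 14.5%. Every AL-old mouse was above every AL-young mouse, and the lowest AL-old mouse fell within the range of the CR-old mice. The means were 6.41 ± 2.38%, 55.3 ± 24.7% and 13.5 ± 4.73% raw, and 6.64, 65.2 and 15.8% adjusted. Sox11 encodes a transcription factor of neural development, and its site (chr12:28027803-28027808) was upstream in the promoter island, at position -231. The AL-young mice were at 7.35, 7.83, 5.81, 3.49 and 4.14%, the AL-old mice at lowest 14.6, median 30.5 and highest 76.2%, and the CR-old mice at 10.3, 9.9, 12.5, 8.01 and 7.63%. On raw values neither the AL-young nor the CR-old mice overlapped the AL-old mice there. On adjusted values the lowest AL-old mouse (13.2%) was below the highest CR-old mouse (16.6%). The site in the 5' part of Ephb3 (chr16:21205235-21205240), an ephrin receptor gene, was in an untranslated region within the promoter island, at position 384. Its AL-young values were 10.5, 9.78, 10.5, 16 and 12.1%, its AL-old values lowest 28.6, median 48.4 and highest 48.9%, and its CR-old values 26.7, 21.7, 23.9, 15.8 and 18.4%. On raw values the AL-old mice were above both other groups. The means were 11.8 ± 2.53%, 42.7 ± 8.17% and 21.3 ± 4.33% raw and 12.3, 55.4 and 23.7% adjusted. On adjusted values the lowest AL-old mouse (25.95%) was below the highest CR-old mouse (33.35%).

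Runx3, a transcription factor of T cell and natural killer cell development, had a site in an intron outside islands (chr4:134687052-134687057), where the AL-young mice were at 18.2, 11.6, 18.6, 13 and 14.2%. The AL-old mice there were at lowest 19.9, median 46.2 and highest 62.9%, and the CR-old mice at 43.7, 23.8, 50.5, 57.8 and 66.8%. On raw values both old groups were above the AL-young mice and overlapped each other. The means were 15.1 ± 3.12%, 42.5 ± 19.2% and 48.5 ± 16.3% raw and 15.7, 54.1 and 51% adjusted. On adjusted values the lowest AL-old mouse (17.8%) was below the highest AL-young mouse (20.1%). The CR-old to AL-old difference at this site was 0.40 ± 0.67 as log2 of the odds ratio (± SE, edgeR, adjusted p = 0.853) and -0.23 ± 0.65 with the offset (adjusted p = 0.937), so its sign depended on the scale. A second Runx3 site 228 bp away was at 8.36, 24 and 31.1% in young, AL-old and CR-old mice, and one farther along the gene was at 16.6, 17.8 and 9.12%. Their adjusted means were 8.69, 34.9 and 32.5% and 17, 25.1 and 10.2%.

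The other gains were carried unevenly by the AL-old mice. An intronic site of Tcf20, a transcriptional coregulator gene, had a mean of 15.3 ± 2.33% in the young and 42 ± 26.6% in the AL-old mice, which ran from 18.8 to 85.4%, against 18.1 ± 4.73% in CR-old mice. An intronic site of Maml3, a Notch coactivator gene, was at 5.2 ± 0.857%, 25.5 ± 21.1% and 16.6 ± 7.95%, with AL-old mice at lowest 6.91, median 19.3 and highest 68.8%. A coding-exon island site of Chadl, a collagen-binding protein gene, was at 6.06 ± 0.9%, 16.5 ± 8.62% and 9.22 ± 3.89%. At the Chadl site the adjusted means were 6.33, 27.1 and 11.1%, so that the AL-old level was 27.1% on this scale and 16.5% on the raw scale. An intergenic island site (chr14:24822953-24822958) was at 6.05 ± 1.76%, 28.5 ± 23% and 8.33 ± 1.38%, with AL-old mice at lowest 12.1, median 16.4 and highest 76.2%. On raw values all AL-old mice were above all young mice at each of these 4 sites, and AL-old mice overlapped CR-old mice at all but the intergenic site. On adjusted values they overlapped there too, with the lowest AL-old mouse at 14.8% and the highest CR-old mouse at 15.8%. At Chadl the lowest AL-old mouse (6.37%) was on that scale below the highest AL-young mouse (7.13%).

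Under the same limits, the 8 sites with the largest losses in raw means were all outside islands. At an upstream site of 4930511F01Rik (chr2:142728379-142728384, position -320) the AL-young mice were at 16.5, 22, 14.3, 14.4 and 10.1%, the AL-old mice at lowest 0, median 1.38 and highest 9.55%, and the CR-old mice at 9.11, 1.04, 6.95, 7.89 and 8.9%. The AL-old mice were below every AL-young mouse, with means of 15.5 ± 4.35%, 2.3 ± 3.3% and 6.78 ± 3.32% raw and 15.8, 3.01 and 7.03% adjusted. Tns3 encodes tensin 3, which links integrins to the actin cytoskeleton, and its intronic site (chr11:8528787-8528792) was at 14.9, 16.9, 11.2, 15.7 and 16.6% in AL-young mice. The AL-old mice there were at lowest 0.0672, median 1.59 and highest 7.78%, and the CR-old mice at 10.8, 3.88, 6.27, 3.75 and 2.13%. Both old groups lay below the AL-young mice, with AL-old and CR-old mice overlapping, and the adjusted means were 15.5, 3.72 and 5.91%. An upstream site of Fes, a tyrosine kinase gene of myeloid cells, was at 14.6 ± 3.61% in AL-young, 2.9 ± 3.59% in AL-old and 6.29 ± 2.33% in CR-old mice, and at 15, 4.09 and 7.16% on the adjusted scale. Further losses, given as raw AL-young, AL-old and CR-old means, were at 15.7, 3.67 and 8.22% upstream of a U6 small nuclear RNA gene and at 19.4, 7.6 and 13.6% in Rgs22, a regulator of G-protein signalling. The site of Bmp7, a secreted growth factor of the TGF-beta family, was at 15.8, 5.36 and 9.96%, that of Tbcc, a tubulin-folding cofactor, at 14.4, 3.64 and 11.4%, and that upstream of the microRNA gene Mir1982 at 15.9, 5.9 and 13.4%. On the adjusted scale the means were 16.2, 5.18 and 9.24% at U6 and 20.1, 11.8 and 15.2% at Rgs22. They were 16.25, 8.09 and 11.04% at Bmp7, 15.02, 6.18 and 12.82% at Tbcc and 16.49, 9.997 and 15.19% at Mir1982. On this scale the highest AL-old mouse exceeded the lowest AL-young mouse at Rgs22 (19.45 and 16.77%), Bmp7 (15.28 and 11.98%) and Mir1982 (21.82 and 13.45%). The highest AL-old mouse was below the lowest AL-young mouse at U6 (11.06 and 15.02%) and Tbcc (10.7 and 11.81%). At each of the 8 named losses, which were chosen for their low AL-old values, the raw CR-old mean was between the means of the other groups.

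**Figure D3:**
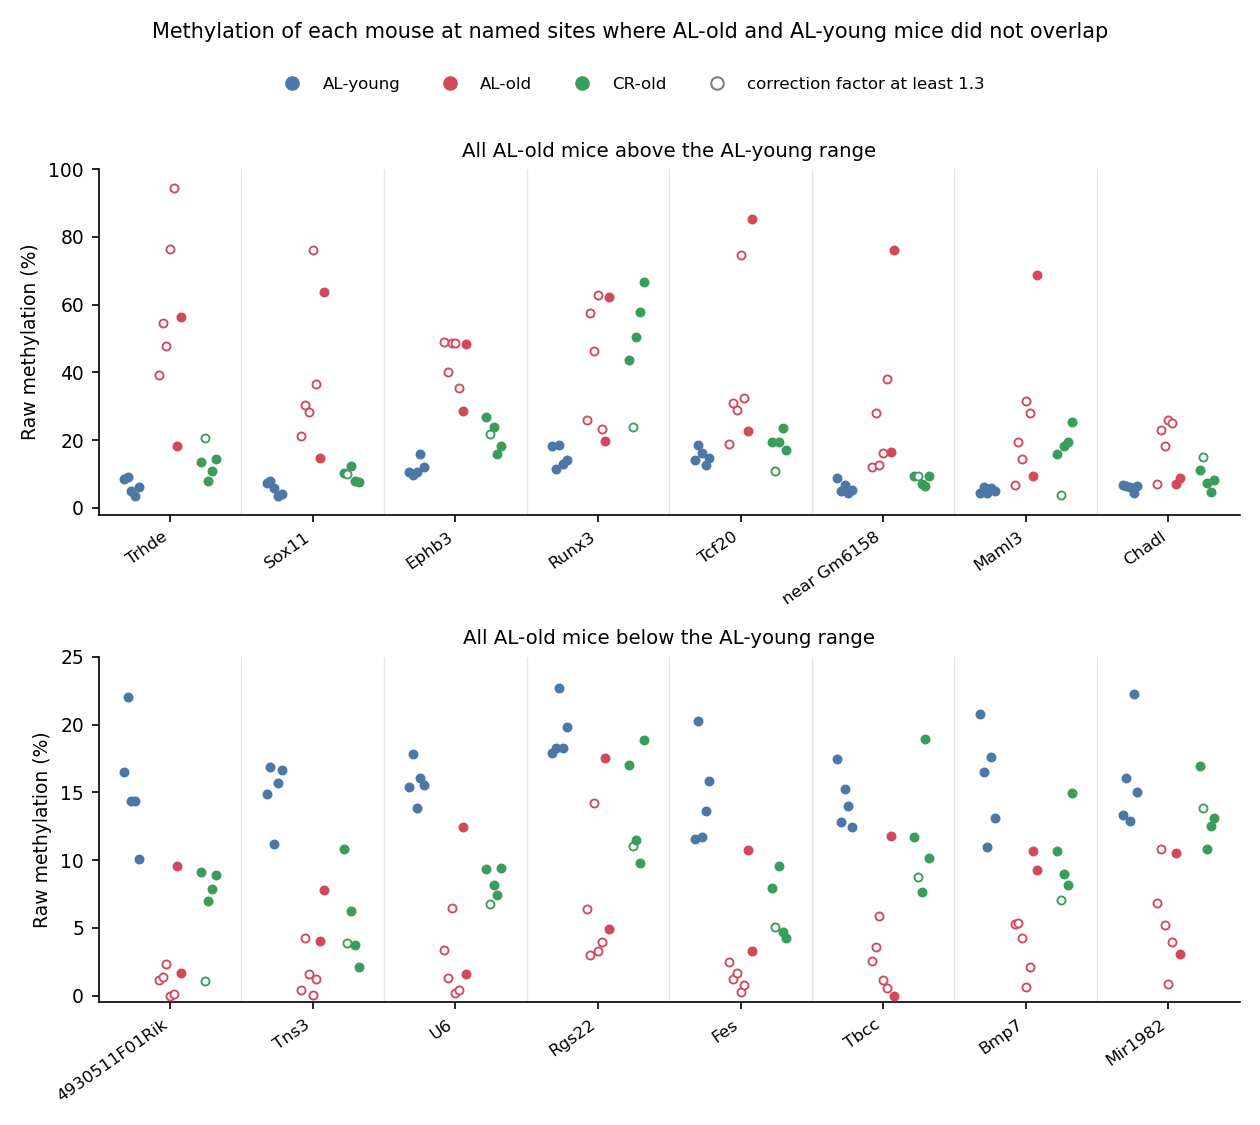
Raw methylation in percent of each mouse at the gained and lost sites named in the text, by group. Open points mark mice with a correction factor of at least 1.3. At the Trhde and Sox11 sites the CR-old means of 13.5 and 9.65% were below the AL-old means of 55.3 and 38.8%, and at the Runx3 site the CR-old mean of 48.5% was not. The sites were chosen for high or low AL-old values, so these differences are not independent of that choice.

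The CR-old to AL-old comparison used no value that chose the sites. Its direction also depended on the scale, with a median CR-old minus AL-old difference of 0.95 points raw (57.4% of sites higher in CR-old) and -1.41 points adjusted (41.1% higher). In low-correction mice alone the raw median was -1.52 points. Island sites had medians of -0.50 raw and -3.83 adjusted, and sites outside islands 1.3 raw and -1.09 adjusted. By edgeR with no correction term, 34 of the 570 sites were called higher in CR-old mice and 8 lower, which is 5.96 and 1.40% of the members against a background of 1.65 and 1.77% of all retained sites. With the correction factor as an offset, 22 (3.86%) were called higher and 39 (6.84%) lower, against a background of 1.22 and 6.96%. The share called lower was thus near the background in both fits. All 22 higher calls of the offset fit were among the 34, all 8 lower calls of the uncorrected fit were among the 39, and no site was called in opposite directions. Of the sites called lower under the offset 17 of 39 were in islands, and of those called higher 5 of 22. With that covariate no member was called in either direction by edgeR, beside 6 higher and 60 lower over all retained sites, while 171 members had an unadjusted p below 0.05 in the uncorrected fit. In the 11 low-correction mice, which hold 2 AL-old and 4 CR-old animals, 2 members were called higher and 5 lower, beside 17 and 159 of all 15742 retained sites. On raw values, with those under 100 reads left out, all CR-old values exceeded all AL-old values at 5 sites (background 0.286%). They were Trp73, Tmem171, BC031181, Csf2ra and an intergenic site on chromosome 19, named after their values were seen. Csf2ra had no value in AL-old 08 and 25, and its highest AL-old value was 11.1% against a lowest CR-old value of 12.4%. Csf2ra was not called in the uncorrected or the offset fit (edgeR, adjusted p = 0.0652 and 0.137). All CR-old values lay below all AL-old values at 3 sites (background 1.04%), namely Sox11, Ephb3 and the intergenic site chr14:24822953-24822958. On adjusted values all CR-old values exceeded all AL-old values at 6 sites (background 0.286%) and lay below them at 5 (background 2.25%). Sox11, Ephb3 and the intergenic site chr14:24822953-24822958 were not among those 5, because AL-old and CR-old mice overlapped there on that scale.

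In the uncorrected fit, 29 of the 34 sites higher in CR-old mice and 4 of the 8 lower ones lay outside islands, where 422 of the 570 members lie. Over all retained sites, 241 of 259 higher calls and 109 of 279 lower calls lay outside islands. Those calls were 1.65 and 1.77% of all retained sites, and no matching share is given for the narrower classes below. The 116 promoter members outside islands had 9 higher and 0 lower, the 199 in gene bodies outside islands 12 and 2, the 107 between genes outside islands 8 and 2, and the 70 in promoter islands 2 and 4. With the offset, 17 of the 22 higher and 22 of the 39 lower calls lay outside islands, beside 177 of 192 and 483 of 1096 over all retained sites. The offset calls were 1.22 and 6.96% of all retained sites. By the level in young mice, the 187 sites from 5 to below 7.5% had 8 higher and 3 lower in the uncorrected fit and 5 and 18 with the offset, and the 124 sites from 15 to below 20% had 12 and 3, then 9 and 8. The median CR-old minus AL-old difference in these classes was 0.39 and 2.68 points raw and -1.71 and -0.68 adjusted.

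Mn1, a transcriptional regulator gene linked to myeloid leukaemia, was called higher in CR-old mice in the uncorrected and offset fits at each of its 3 weakly methylated sites, and at none with the covariate or in low-correction mice. At the coding-exon island site (chr5:111849750-111849755) the AL-young mice were at 11.2, 14, 11.5, 14.5 and 15.9%, the AL-old mice at lowest 3.9, median 14.5 and highest 54.9%, and the CR-old mice at 53.4, 48.5, 49.9, 67 and 56.4%. Only AL-old 08 reached the CR-old range. The means were 13.4 ± 2.03%, 20.7 ± 18.2% and 55 ± 7.38% raw and 14, 29.5 and 58% adjusted, with log2 of the CR-old to AL-old odds ratio at 2.68 ± 0.69 (edgeR, adjusted p = 0.0154). The adjusted p was 0.0374 with the offset, 0.054 with the covariate and 0.0519 in low-correction mice, and the call was lost on leaving out CR-old 20 (0.0775) or 22 (0.054). The other Mn1 sites, chr5:111849235-111849240 and chr5:111849042-111849047, were at 18.4 ± 16.1% and 15.5 ± 16.2% in AL-old and 46.2 ± 9.92% and 39.5 ± 7.11% in CR-old mice (edgeR, adjusted p = 0.0335 and 0.029). With the offset their adjusted p was 0.0391 and 0.0447, with the covariate 0.216 and 0.165, and in low-correction mice 0.217 and 0.223, where log2 of the odds ratio was 1.14 ± 0.54 and 1.41 ± 0.67 against 2.50 ± 0.72 and 2.59 ± 0.72.

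Fam164c, a zinc-finger gene, had a promoter site in an intron outside islands (chr12:86629995-86630000) at 17.8, 15.4, 11.6, 14.4 and 17.7% in AL-young mice. It was at lowest 0.266, median 2.63 and highest 28.7% in AL-old mice and at 25.4, 4.14, 21.7, 22.8 and 31.8% in CR-old mice. AL-old 25 stood within the CR-old range, and CR-old 06 was close to the other AL-old mice. Log2 of the odds ratio was 3.73 ± 0.84 (edgeR, adjusted p = 0.00556), and the call held on leaving out each mouse and with the offset (0.00302), while in low-correction mice the adjusted p was 0.269. An intergenic site (chr4:149250546-149250551) was at 19.4 ± 2.57% in AL-young, 14 ± 14.4% in AL-old and 36.8 ± 7.01% in CR-old mice, with AL-old mice at lowest 0.847, median 9.6 and highest 43.2% and CR-old mice at 41, 25.8, 34.5, 39.4 and 43.5%. It was called in the uncorrected fit (2.47 ± 0.72, edgeR, adjusted p = 0.0359), with the offset (0.0442) and in low-correction mice (2.42 ± 0.55, 0.0459). The call was lost on leaving out AL-old 08 (0.0697), 13 (0.0877), 14 (0.058), CR-old 02 (0.0859), 19 (0.083), 20 (0.107) or 22 (0.111).

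Further named sites were called higher in CR-old mice. An island site upstream of B130046B21Rik was at 7.17, 3.33 and 18.1% in young, AL-old and CR-old mice (edgeR, adjusted p = 0.016). This call was lost without CR-old 19 (0.0615), 20 (0.0759) or 22 (0.0896). An intron of Afap1, an actin-binding adaptor gene, was at 11.2 ± 3.6%, 7.8 ± 10.6% and 24.6 ± 13% (edgeR, adjusted p = 0.0335), and its call was lost without AL-old 08 (0.0734), 09 (0.0817), 10 (0.0649), 13 (0.0749), CR-old 02 (0.0814), 19 (0.11), 20 (0.128) or 22 (0.122). An intergenic site (chr14:65970835-65970840) was at 9.63, 4.33 and 20.1%, with CR-old mice at 13.4, 1.43, 17.7, 35.1 and 32.7% (edgeR, adjusted p = 0.0145, lost without CR-old 19 (0.053), 20 (0.0907) or 22 (0.0839)). There CR-old 06, the CR-old mouse with a high correction, was the low value of its group. Zbtb32, a repressor of T and B cell responses, was at 17.9 ± 3.32%, 3.02 ± 5.78% and 10.1 ± 4.53%, with log2 of the odds ratio at 3.46 ± 0.83 (edgeR, adjusted p = 0.00946) and an adjusted p of 0.479 in low-correction mice.

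Of the sites called lower in CR-old mice, Trhde had log2 of the odds ratio at -3.13 ± 0.71 (edgeR, adjusted p = 0.00655) and -3.84 ± 0.75 with the offset (adjusted p = 0.000715), and its call held on leaving out each mouse. Its adjusted p was 0.0748 with the covariate and 0.0819 in low-correction mice. Sox11 had -2.45 ± 0.67 (edgeR, adjusted p = 0.0246), 0.00201 with the offset, 0.0719 with the covariate and 0.0714 in low-correction mice, and was lost on leaving out AL-old 13 (0.0547), CR-old 02 (0.053), 19 (0.0539), 20 (0.0897) or 22 (0.0841). In the uncorrected fit it was the only called site that reached 100 reads in each mouse and whose AL-old and CR-old mice did not overlap on raw values. An intergenic site (chr1:135068066-135068071) was at 18.1 ± 1.35% in AL-young, 55.2 ± 26.6% in AL-old and 16 ± 7.46% in CR-old mice, with log2 of the odds ratio at -2.90 ± 0.73 (edgeR, adjusted p = 0.0139, lost without CR-old 20 (0.0705) or 22 (0.064)). A promoter island site of Wipf1, an actin regulator of lymphocytes, was at 12.4 ± 0.914%, 39.4 ± 23.2% and 10.2 ± 3.53% (edgeR, adjusted p = 0.0335, lost without AL-old 10 (0.0673), 13 (0.0582), 14 (0.0802), CR-old 19 (0.082), 20 (0.127) or 22 (0.111)). Another intergenic site (chr6:144771343-144771348) was at 16.8, 38.2 and 9.75% (edgeR, adjusted p = 0.0222, lost without CR-old 19 (0.0655), 20 (0.0931) or 22 (0.116)). Chdh, which encodes the choline dehydrogenase of mitochondria, was at 5.64 ± 1.74%, 17.5 ± 17.3% and 2.37 ± 0.801% at a promoter island site in an untranslated region (edgeR, adjusted p = 0.042). Its call was lost without AL-old 13 (0.101), 14 (0.0802), 27 (0.0686), CR-old 02 (0.0646), 06 (0.0667), 19 (0.0836), 20 (0.127) or 22 (0.116). Ephb3 and the intergenic site chr14:24822953-24822958 were also below the AL-old mice in every CR-old mouse on raw values. They were not called in the uncorrected fit (edgeR, adjusted p = 0.178 and 0.114) and were called with the offset (0.0189 and 0.00628).

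**Figure D4:**
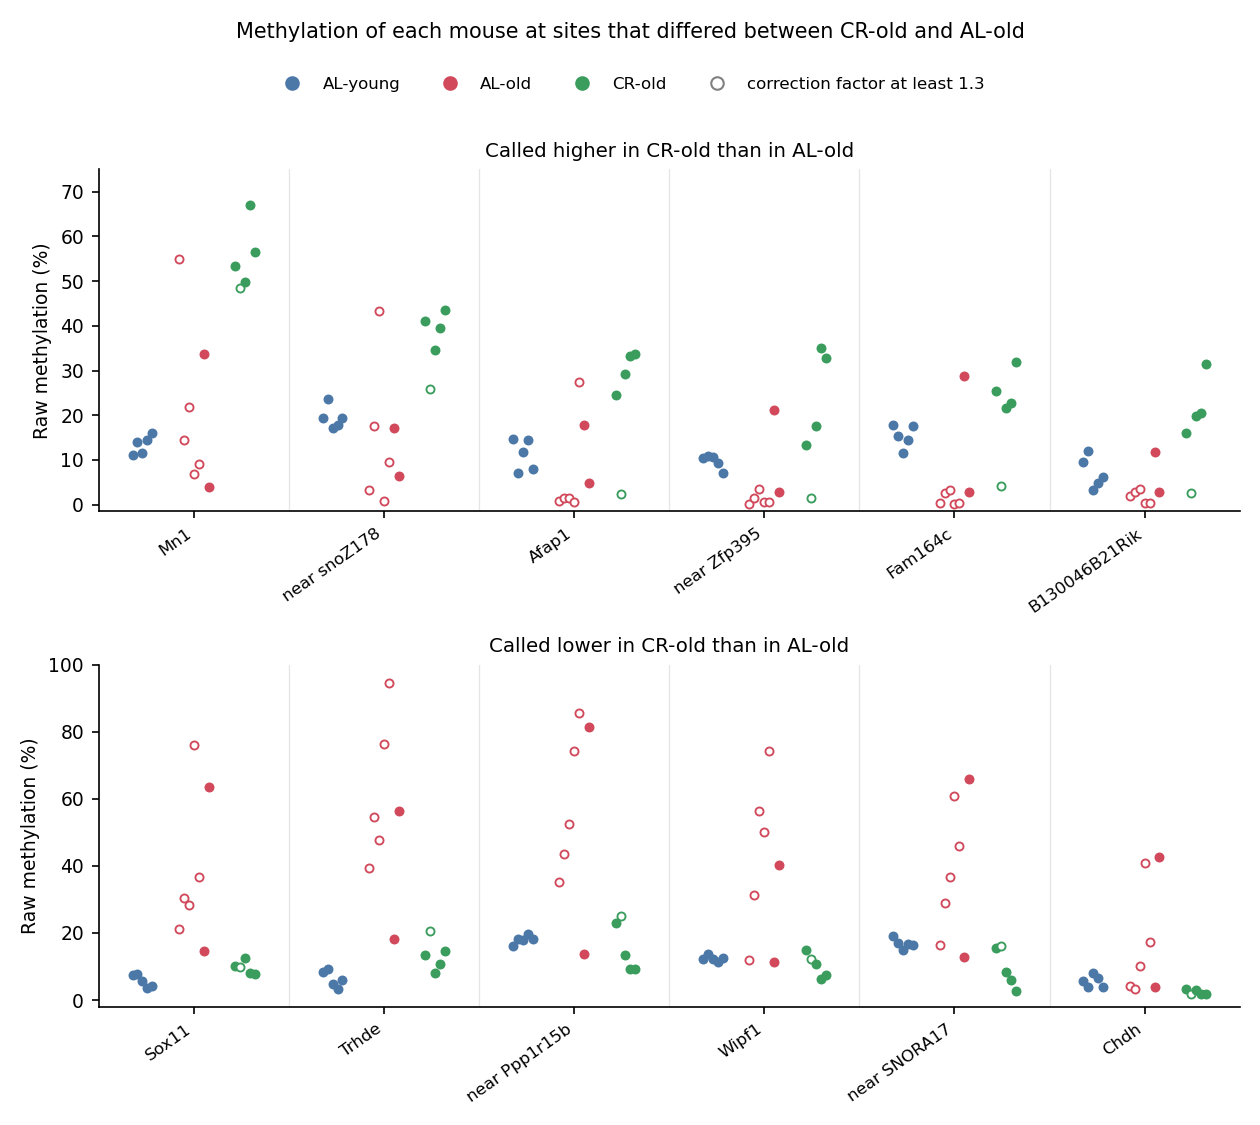
Raw methylation in percent of each mouse at sites called between CR-old and AL-old mice, with intergenic sites labelled by the nearest gene start. Open points mark mice with a correction factor of at least 1.3. At the Mn1 site the CR-old mean was 55% against 20.7% in AL-old mice, and at the Trhde site 13.5% against 55.3%.

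The number of diet calls hung on a few mice. For fits without a mouse, matching counts over all retained sites are not given. Their changes are thus not read as particular to the members. Leaving out AL-old 25, 27, 09, 13 or 14 gave 93, 55, 17, 14 or 16 sites called higher in CR-old mice in place of 34, and leaving out CR-old 06, 02, 19, 20 or 22 gave 57, 12, 6, 5 or 5. The 8 sites called lower became 15 without AL-old 08, 19 without AL-old 25, 4 without AL-old 13, 5 without AL-old 14, 3 without CR-old 19 and 2 without CR-old 20 or 22. For the AL-old to AL-young description, the lower count of 83 became 146 without AL-old 25 and 132 without AL-old 27. Sites called in low-correction mice alone were Hmcn2 and the intergenic site on chromosome 4 given above, higher in CR-old mice, and Nkain2, A330033J07Rik, Pgm5 and intergenic sites on chromosomes 8 and 15, lower (edgeR, adjusted p = 0.0459 to 0.0478). The AL-old group there held only 2 mice. Of the 12 named sites called between CR-old and AL-old mice, 12 were also called with the offset, 1 in low-correction mice and 0 with the covariate.

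No member was called between CR-old and AL-young mice by edgeR in the uncorrected fit or with the offset, while 35 sites had an unadjusted p below 0.05 in the uncorrected fit. The background was 0% in each direction in the uncorrected fit and 0.0127% higher and 0.0254% lower with the offset. The covariate fit called 2 higher and 0 lower, beside 8 and 30 of all 15742 retained sites. Low-correction mice alone gave 13 higher and 7 lower, beside 44 and 316 of all retained sites. A fit to the CR-old and AL-young groups alone gave 20 and 40, with no matching count over all retained sites given. The median CR-old minus AL-young difference was -0.64 points raw and -0.10 adjusted, and the difference between the group means over members was 0.049 points raw. The young values chose the members, so nothing is read from these counts.

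The AL-old mice varied most at these sites. The median SD among mice of a group was 1.94 points in AL-young, 7.49 in AL-old and 3.60 in CR-old mice, where counting error alone gave medians of 1.37, 1.33 and 1.36 points. An SD above 10 points was found at 1 site in AL-young, 223 sites (39.1%) in AL-old and 20 sites (3.51%) in CR-old mice on raw values, and at 1, 272 and 26 sites on adjusted values. In AL-old mice the median was 10.2 points in islands and 6.69 outside. Sites below 5% in AL-young mice had median SDs of 0.149, 0.173 and 0.157 points in the same order of groups, and sites from 20 to below 80% had 3.65, 19.3 and 8.16. Different AL-old mice carried the top value at different sites. On adjusted values AL-old 13, 25, 14 and 27 were highest at 120, 104, 102 and 95 sites, and AL-old 10, 09 and 08 at 55, 53 and 41. On raw values AL-old 25 and 27, the males with a low correction, were highest at 177 and 153 sites. The raw counts of AL-old 14, 13, 10, 09 and 08 were 100, 51, 48, 32 and 9, so the ranking depended on the scale.

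**Figure D5:**
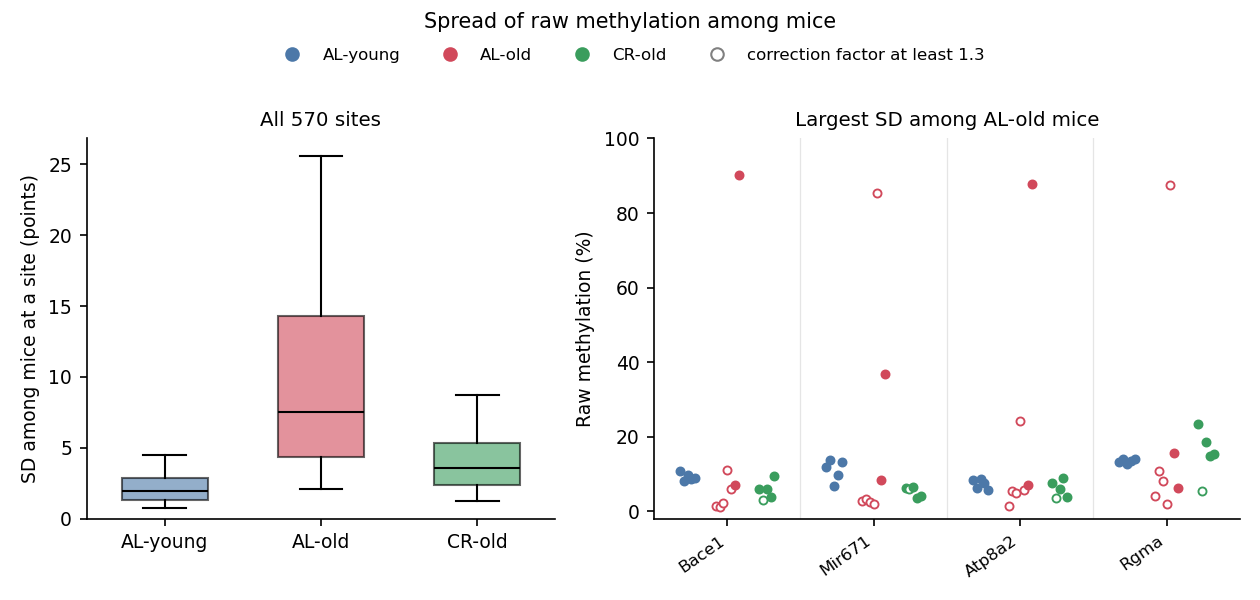
On one side, boxes of the SD among the mice of each group over the 570 sites, in percentage points, with the line at the median, the box over the quartiles and whiskers from the 5th to the 95th percentile, and on the other side the raw methylation in percent of each mouse at the 4 sites with the largest AL-old SD, where open points mark a correction factor of at least 1.3. The median SD was 1.94 in AL-young, 7.49 in AL-old and 3.60 in CR-old mice, and single AL-old mice reached 85.3 to 90.3% at the 4 sites. The AL-young values chose the 570 sites, so the AL-young SD is not independent of that choice.

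At the sites with the largest AL-old spread, 1 or 2 mice stood far above the rest. Bace1, which encodes beta-secretase 1, had AL-old 27 at 90.3% and the other AL-old mice from 1.10 to 11.1%. Atp8a2, a phospholipid flippase gene, had the same mouse at 87.9% and the next, AL-old 13, at 24.3%. Rgma, a repulsive guidance molecule of axons, had AL-old 14 at 87.6% and the others from 1.88 to 15.7%. Upstream of the microRNA gene Mir671, AL-old 14 was at 85.3%, AL-old 27 at 36.9% and the others from 2.02 to 8.28%. These values belong to single animals and no group difference was called at these 4 sites in the uncorrected, offset, covariate or low-correction fits. The sites with the smallest range over all 17 mice were an untranslated-region site of the tetraspanin gene Cd82 (range 5.66 points), an intergenic site on chromosome 4 (6.09), an intronic site of Zmiz1, a coactivator gene (6.79), and an upstream site of Olfm1, a secreted neuronal glycoprotein gene (6.95). At Cd82 the AL-young mice were at 6.08, 6.02, 4.17, 6.76 and 6.5%, the AL-old mice at lowest 1.1, median 2.51 and highest 5.42%, and the CR-old mice at 5.34, 5.04, 2.74, 5.36 and 3.85%. The 3 groups overlapped there. At Zmiz1 the AL-young mice (5.16 to 6.84%) were all above the AL-old mice (0.051 to 4.6%) and the CR-old mice (1.04 to 3.71%). Zmiz1 was called lower in AL-old than in young mice in the uncorrected and offset fits, and the intergenic site in the uncorrected fit. A small range is thus not an absence of calls, and nothing is read from these calls because the young values chose the sites.

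Of 397 retained sites in developmental transcription factors, 15 in 13 genes (3.78%) were weakly methylated, beside 3.62% of all retained sites. Among them Hoxc5 was at 9.23, 23.7 and 18.2% raw in young, AL-old and CR-old mice. Of the 15 sites, only 4 were higher in AL-old than in young mice on raw values, and 8 on adjusted values. Ebf1 and Gata3 were on this list and on that of blood genes. Over the 15 the median AL-old minus AL-young difference was -2.64 points raw and 0.65 adjusted, beside -1.54 and 1.58 over all 570. Of 118 retained sites in blood lineage and immune genes, 9 in 6 genes (7.63%) were members. Cebpb, a myeloid transcription factor, was at 6.33, 1.78 and 2.63% in young, AL-old and CR-old mice at chr2:167513925-167513930. A second Cebpb site 126 bp away was at 5.78, 2.75 and 5.99%. Between CR-old and AL-old mice, 1 site of the developmental list was called lower (Sox11) and 1 of the blood list higher (Zbtb32) by edgeR in the uncorrected fit. The imprinted list gave 1 member of 57 sites, Peg12, at 15.4, 35 and 13.8% in young, AL-old and CR-old mice. Peg12 was not called between CR-old and AL-old mice in the uncorrected fit (edgeR, adjusted p = 0.166) and was called lower in CR-old mice with the offset (0.0157). The germline list gave Stag3 (16.2, 16.9 and 19.4%) of 16 sites, and the chromatin regulators gave Dnmt3a (15.7, 15.4 and 13.6%) of 106, the gene of a de novo DNA methyltransferase, where AL-old mice ran from 1.08 to 53.2%. Neither was called between CR-old and AL-old mice in the uncorrected fit.

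Members whose nearest retained neighbour was also a member formed 74 distinct pairs within 1000 bp. In 59 of these the adjusted AL-old minus AL-young difference had the same sign at both sites. Other pairs of members within that distance were not counted. Members whose nearest retained neighbour was at 20% or more in AL-young mice had a median adjusted AL-old minus AL-young difference of 3.30 points and those beside a site below 5% had 0.95, while the raw medians were -1.32 and -1.95. The pairs share libraries and reads of the same mice, so the count is a description.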

How the data were processed

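DREAM was performed on whole blood DNA of 17 mice (AL-young 5, AL-old 7, CR-old 5), grouped by the submitters' labels, and each replicate is a separate mouse. The authors deposited, for each mouse and each of 173449 genomic sites, counts of methylated and total reads, together with a percent methylation and an adjusted percent corrected with spiked-in standards (18 rows of standards were kept out of every test). The submitters' processing notes name Bowtie2, SAMtools, mm9 and mm10 without a role for each. All 173449 deposited positions lie on CCCGGG in NCBIM37 (mm9), which was used with GENCODE M1 for sequence, genes and promoters (1000 bp before to 500 bp after a start). CpG islands were called on the genome as stretches of at least 200 bp with GC of at least 50% and an observed to expected CpG ratio of at least 0.6, and a site was in an island when its CpG was.

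Raw methylation is methylated over total reads, with values under 100 reads left out. Methylated and unmethylated counts of all 15742 retained sites were tested with edgeR 4.0.16 (quasi-likelihood, all 3 groups in the fit, R 4.3.3), with Benjamini-Hochberg adjustment over all retained sites, an adjusted p below 0.05 and a difference of at least 2 points for a call. That difference was taken on adjusted values for the offset fit and on low-correction mice alone for their fit. The test was checked on simulated data. The correction factor of a mouse, the ratio of adjusted to raw odds, entered as an offset or, as high (1.3 or more) against low, as a covariate in alternative fits. Other alternatives were low-correction mice only, 1 sex only, the compared groups only, read minimums of 20 and 500, a dispersion for each site, limma 3.58.1 on log2 odds with 0.5 reads added, members chosen on adjusted values, and leaving out each mouse. Figures and summaries used python 3.11.15, numpy 2.4.6, pandas 2.3.3, scipy 1.17.1 and matplotlib 3.10.9.

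The Wilson 95% interval at 10 of 100 reads is 5.52 to 17.4%, and a count of 0 in 100 reads allows 3 reads. Such intervals cover counting error only. Sites were named by these rules, among members that reached 100 reads in each mouse, taking 1 site per gene: the 8 gained and 8 lost with the largest AL-old to AL-young difference and no overlap, up to 6 called in each direction between CR-old and AL-old mice, the 4 with the smallest range, the 4 with the largest AL-old SD, those next to the window's ends, and the first 3 of each gene list. Zbtb32, further sites of Runx3, Mn1 and the sites called in low-correction mice were added after their values were seen. The members, gene lists and tests were chosen with earlier results of these data known. No label gave the instrument, run date or adapter of a mouse.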

Additional observations from a re-analysis of the deposited data

Results flagged for a closer look

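Among 108 groups of mice at the named sites, 16 held a mouse whose gap to the nearest other, over the group's range, was above Dixon's 95% critical value, where chance flags about 1 in 20 groups. The sites were picked on these same values, and Bace1, Mir671, Atp8a2 and Rgma for their large AL-old SD, so that rate does not hold here. All values are raw methylation. In the AL-old group, mouse 25 was high at 4930511F01Rik (9.55%, others 0 to 2.29%), Fes (10.7%, others 0.241 to 3.30%), the intergenic site chr14:65970835 (21.1%, others 0.152 to 3.44%), Fam164c (28.7%, others 0.266 to 3.38%), B130046B21Rik (11.7%, others 0.283 to 3.40%), the intergenic site chr4:10850658 (4.93%, others 0.291 to 1.45%) and Zmiz1 (4.63%, others 0.0510 to 1.57%). Mouse 27 was high at the intergenic site chr14:24822953 (76.2%, others 12.1 to 38.2%), Maml3 (68.8%, others 6.91 to 31.6%), Bace1 (90.3%, others 1.10 to 11.1%) and Atp8a2 (87.9%, others 1.29 to 24.3%). Mouse 14 was high at Mir671 (85.3%, others 2.02 to 36.9%) and Rgma (87.6%, others 1.88 to 15.7%), and mouse 10 at the intergenic site chr4:149250546 (43.2%, others 0.848 to 17.6%). Outside the AL-old group, CR-old 06 was low at 4930511F01Rik (1.04%, others 6.95 to 9.11%) and AL-young 28 was low at Cd82 (4.17%, others 6.02 to 6.76%). AL-old 25 and 27, which carry 11 of the 16, are the males of that group and its mice with a low correction.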

How the results depend on the processing

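No paired analysis was possible because mouse numbers are not shared between groups. Counts of calls below are of members. Matching counts or shares over all retained sites are given above only for the uncorrected, offset, covariate and low-correction fits. Leaving out a mouse together with the offset, and choosing members on adjusted values together with the offset, were added after seeing the data; for every change below the cause was not tested. Sites called higher in AL-old mice than in young ones (22) became 54 with the offset, 56 in low-correction mice, 12 with only the compared groups, 36 and 3 with read minimums of 20 and 500, 57 with adjusted members and the offset, 1 in females and 0 in males. Those called lower (83) became 47, 1 with the covariate, 5 in low-correction mice, 32 with a minimum of 500, 45 with adjusted members and the offset, 15 in females and 0 in males. Sites called higher in CR-old than AL-old mice (34) became 22 with the offset, 0 with the covariate, 2 in low-correction mice, 14 with only the compared groups, 13 with a minimum of 500, 21 with limma, 20 with adjusted members and the offset, and 0 in either sex alone. Those called lower (8) became 39, 0, 5, 3, 13 (minimum of 20), 1 (minimum of 500), 5 (limma), 39 and 0 in either sex. CR-old to AL-young calls (0 higher, 0 lower) became 2 higher with the covariate, 13 and 7 in low-correction mice and 20 and 40 with only the compared groups. The mean AL-old minus AL-young difference of 0.654 points was 5.83 in low-correction mice and -0.721 with a minimum of 500, and the CR-old minus AL-old difference of -0.605 became 0.766 with a minimum of 500. Leaving out each mouse gave -0.693 (without AL-old 27) to 1.69 for the first, -1.64 to 0.742 (without AL-old 27; 0.370 without CR-old 06) for the second, and -0.466 to 1.02 for CR-old minus AL-young (0.0491), below 0 without AL-young 28 (-0.200) or 30 (-0.0921) and without CR-old 02 (-0.466), 19 (-0.0230), 20 (-0.140) or 22 (-0.150). Leave-one-out ranges of calls were 12 to 31 and 62 to 146 for AL-old against AL-young (42 to 74 and 33 to 73 with the offset), 5 to 93 and 2 to 19 for CR-old against AL-old (5 to 49 and 20 to 57), and 0 to 1 and 0 to 0 for CR-old against AL-young (0 to 2 higher with the offset); the median AL-old SD was 6.40 to 7.78. Outside islands, AL-old minus AL-young turned positive on adjusted values (2.95), in low-correction mice (3.91) and without AL-old 08 (0.327), with a leave-one-out range down to -1.73 (without AL-old 27). CR-old minus AL-old there turned negative on adjusted values (-3.04), in low-correction mice (-3.63), with a minimum of 20 (-0.251), with adjusted members (-0.00270), and without AL-old 08 (-0.956), 09 (-0.415), 10 (-0.168) or 13 (-0.275) or CR-old 02 (-0.492), 19 (-0.0726), 20 (-0.158) or 22 (-0.139), with 1.10 without AL-old 27. CR-old minus AL-young there turned positive in low-correction mice and without CR-old 06 (0.277 each), with -1.13 without CR-old 02. None of the 16 AL-old to AL-young and 12 CR-old to AL-old results at named sites reversed; the uncalled Runx3 diet difference of 0.40 was -0.23 with the offset.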
